A study of Mus musculus with 42 samples.

Results

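Regions bound by SOX2 without β-catenin or LEF1 were examined in mouse epiblast-like and caudal epiblast-like cells, using peak lists from sequenced chromatin immunoprecipitates (ChIP–seq). The regions were chosen by their peaks in wild-type (WT) cells given CHIR99021 (CHIR). Per the paper, epiblast-like cells become caudal epiblast-like cells when given CHIR. The 20000 best peaks of each of 9 WT CHIR lists (3 SOX2, 3 β-catenin, 3 LEF1) were merged where they overlapped by at least 1 bp, which gave 139863 regions. A region was kept when at least 2 of 3 SOX2 lists and none of the β-catenin or LEF1 lists had a peak in it. This left 1894 regions, termed SOX2-only here, of the 5582 regions that met the SOX2 criterion. They were compared with 2657 co-bound regions, in which at least 2 of 3 WT CHIR β-catenin lists also had a peak, whatever LEF1 did. The other 1031 SOX2 regions lay between these classes.

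All cells came from embryonic stem cells of the HM1 TetON line (strain HM1 (129)) and were differentiated in bFGF and LGK974, which blocks WNT secretion, and collected at 72 h. The groups were WT with CHIR, WT without CHIR (noCHIR), T/Bra-/- (T/BraKO) with CHIR and cells mutant for Cdx1, Cdx2 and Cdx4 (CdxKO) with CHIR, which was added for the last day. CHIR activates the WNT pathway inside the cell. Each mutant genotype was carried by a line of its own, derived from the WT line, so line and genotype cannot be told apart, and mutants without CHIR were not analysed here. Each combination of factor and group had 3 libraries, which the labels call biological replicates, 30 in all. Per the study's methods, the replicates were separate experiments, and the 12 input samples were not analysed here. Calls in the 9 SOX2 libraries from noCHIR, CdxKO and T/BraKO cells, and in the 12 β-catenin and LEF1 libraries from the mutants, were followed because the rule did not use them.

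SOX2 is a high-mobility-group transcription factor that maintains pluripotency together with OCT4 and later marks neural progenitors. At many pluripotency enhancers SOX2 and OCT4 bind side by side at a composite element. β-catenin does not bind DNA itself and reaches the genome through TCF/LEF factors such as LEF1, whose recognition sequence resembles that of SOX factors. CDX factors and T/BRA are induced by WNT in the caudal epiblast, where the trunk and tail originate.

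The following stretches run 50 bp to each side of the SOX2 summit and are read from the plus strand of GRCm38.p6. Capitals mark matches to the motifs searched on both strands. The SOX motif was CCATTGT with its variant form CCTTTGT, the OCT motif ATGCAAAT with its variant form ATGCTAAT, and the OCT-SOX composite TTGTNATGC. The TCF/LEF motif was CTTTGAA with its variant form CTTTGAT. The CDX motif was CAATAAA with its variant forms CCATAAA, as well as TAATAAA and also the form TCATAAA. A composite match and an OCT match can share letters, and so can a composite match and a SOX match. The first 4 regions were called in all 9 followed SOX2 libraries and show the composite element or a SOX word near the summit. The Cyp11a1 region was called in 6 of 6 mutant libraries and in none without CHIR, the Ankfn1 region in 3 of 3 libraries without CHIR and in no mutant, and the Clec3a region in none of the 9. The Dkk1 region lies near a WNT feedback gene.
Ebf1, chr11:44841835-44841935: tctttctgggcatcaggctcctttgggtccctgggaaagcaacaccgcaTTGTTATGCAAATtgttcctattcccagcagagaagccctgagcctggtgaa
Nrarp, chr2:25180653-25180753: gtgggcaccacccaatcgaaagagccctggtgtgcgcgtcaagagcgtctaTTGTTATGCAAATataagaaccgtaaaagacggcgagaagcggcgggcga
Tbx3, chr5:119304811-119304911: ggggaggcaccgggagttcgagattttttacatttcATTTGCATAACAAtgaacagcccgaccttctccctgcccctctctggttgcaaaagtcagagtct
Slc18b1, chr10:23813159-23813259: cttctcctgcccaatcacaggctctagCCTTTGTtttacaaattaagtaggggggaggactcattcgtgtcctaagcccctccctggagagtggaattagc
Cyp11a1, chr9:58014507-58014607: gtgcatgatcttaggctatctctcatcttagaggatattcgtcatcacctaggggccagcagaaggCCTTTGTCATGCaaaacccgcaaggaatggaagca
Ankfn1, chr11:89818962-89819062: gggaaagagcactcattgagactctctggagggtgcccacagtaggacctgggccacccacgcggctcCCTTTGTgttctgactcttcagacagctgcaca
Clec3a, chr8:114364072-114364172: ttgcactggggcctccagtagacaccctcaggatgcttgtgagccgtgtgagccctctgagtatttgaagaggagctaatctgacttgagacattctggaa
Dkk1, chr19:30553852-30553952: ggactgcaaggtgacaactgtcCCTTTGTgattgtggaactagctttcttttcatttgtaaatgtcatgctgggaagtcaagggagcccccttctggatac

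The deposited lists held 26940 to 1008922 peaks, and the −log10 q of the peak at rank 20000 ranged from 3.26 to 14.1, so the number of best peaks rather than q defined a call. Of the SOX2-only regions, 1292 had a peak in WT CHIR SOX2 replicate 1, 1178 in replicate 2 and 1711 in replicate 3. Only 393 (20.7%) had a peak in 3 of 3 lists, against 47.5% of the co-bound regions. SOX2-only regions were narrower (median 377 bp against 741 bp). Their SOX2 peaks ranked lower in the 3 WT CHIR lists (median rank 4712 to 5560) than those of co-bound regions (1913 to 2114). These values chose the classes or come from the same lists and were not tested. Near the limit of the rule, 143 SOX2-only regions had a β-catenin or LEF1 peak ranked between 20001 and 25000. Just outside, 193 SOX2 regions were left out for a single β-catenin or LEF1 list with no peak better than rank 15001, and 377 regions had 1 SOX2 list only and a second with a peak between ranks 20001 and 25000.

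Absence from the best peaks was not absence from the deposited lists. In the complete WT CHIR β-catenin lists, 12.6%, 16.7% and 39.4% of SOX2-only regions had a peak in replicates 1 to 3, and 25.4%, 24.3% and 7.97% had one in the LEF1 lists. For co-bound regions these shares were 98.5%, 96.1% and 98.0% for β-catenin and 74.3%, 66.8% and 49.5% for LEF1. The β-catenin lists held 40067, 108507 and 469083 peaks and the LEF1 lists 612343, 723070 and 175430, and the shares were not adjusted for this. A weak peak in all 3 β-catenin lists was found at 46 SOX2-only regions (2.43%) and in all 3 LEF1 lists at 19 (1.00%). No peak in any of the 6 complete lists was found at 550 SOX2-only regions (29.0%).

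SOX2 was called at most SOX2-only regions, 51.4% to 68.7% per library, in the conditions that the rule did not use. Without CHIR, 68.7%, 68.5% and 60.9% of the SOX2-only regions had a SOX2 peak in replicates 1 to 3, a mean of 66.1 ± 4.45% (SD, n = 3). In CdxKO the values were 63.1%, 63.5% and 60.2% (62.3 ± 1.81%). In T/BraKO they were 51.4%, 65.4% and 65.0% (60.6 ± 7.96%), with replicate 1 below the other two. The 3 groups overlapped. The mutants together differed from noCHIR by −4.63 percentage points, which the test did not separate from the spread between libraries (two-sided exact permutation test, p = 0.214, Benjamini-Hochberg adjusted p = 0.429 over 8 tests). CdxKO minus noCHIR was −3.80 points (exact p = 0.300), T/BraKO minus noCHIR −5.46 points (exact p = 0.500) and CdxKO minus T/BraKO 1.65 points (exact p = 1.00). With 3 libraries against 3, this test cannot reach 0.05. Without T/BraKO replicate 1, T/BraKO minus noCHIR was −0.862, the mutants minus noCHIR −2.63 and CdxKO minus T/BraKO −2.94 points. Without noCHIR replicate 3, the mutants minus noCHIR was −7.20 and CdxKO minus noCHIR −6.37 points. The direction of the first difference depended on the number of peaks: with the 10000 best peaks the mutants were 0.968 points above noCHIR, and with the 5000 best 8.43 points above (exact p = 0.0238, adjusted p = 0.0833).

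**Figure D1:**
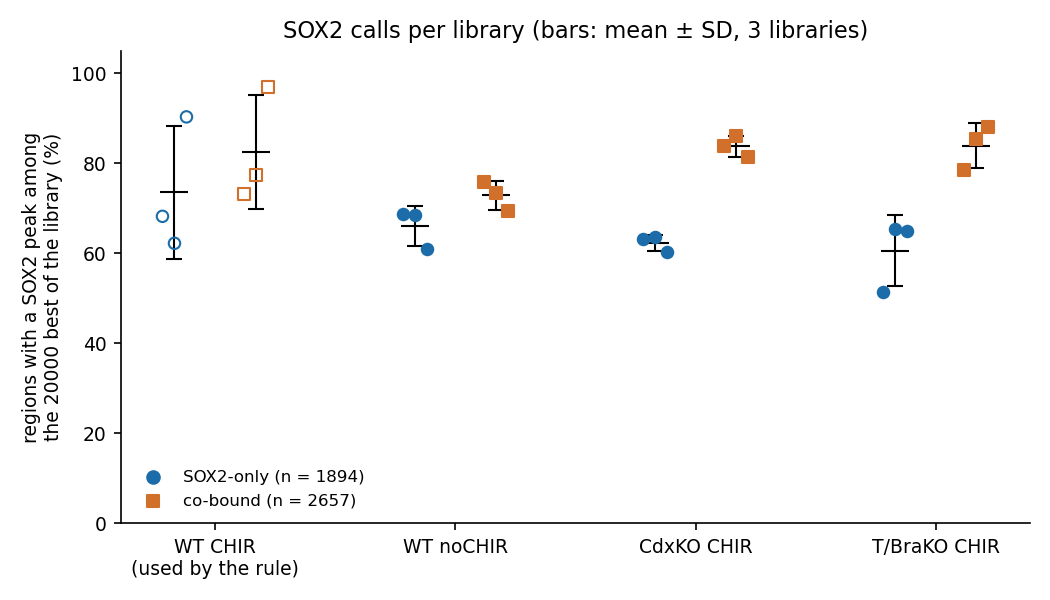
Percentage of 1894 SOX2-only (circles) and 2657 co-bound regions (squares) with a SOX2 peak among the 20000 best of each library, by group, with the mean and SD of 3 libraries. Open symbols are the WT CHIR libraries that chose the regions. SOX2-only minus co-bound was −8.43 to −4.90 points in noCHIR and −26.9 to −19.9 points in the mutants.

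The distance to the co-bound regions differed between the mutants and cells without CHIR. Co-bound regions were called in 75.8%, 73.4% and 69.4% of cases in noCHIR replicates 1 to 3, in 83.9%, 86.1% and 81.4% in CdxKO and in 78.4%, 85.4% and 88.0% in T/BraKO. SOX2-only regions were called less often than co-bound regions in all 9 followed libraries, with a mean difference of −17.2 points (exact sign-flip permutation test, p = 0.00391, the smallest it can give, adjusted p = 0.0312). The difference was −7.02, −4.90 and −8.43 points in noCHIR, −20.8, −22.6 and −21.3 points in CdxKO and −26.9, −19.9 and −23.0 points in T/BraKO, with no overlap between noCHIR and the mutants. Its mean in the mutants minus that in noCHIR was −15.6 points (exact permutation test over 84 assignments, p = 0.0119, the smallest it can give, adjusted p = 0.0476). Co-bound regions were at 72.9 ± 3.24% (n = 3) in noCHIR and 83.9 ± 3.48% (n = 6) in the mutants, a difference that was not tested on its own, and SOX2-only regions at 66.1 ± 4.45% and 61.4 ± 5.24%. The mutants shared CHIR with the lists that chose both classes, and noCHIR did not, so the effect of CHIR and the shared condition with the rule cannot be told apart.

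The average difference depended on how many WT CHIR lists called SOX2. Among regions with a peak in 3 of 3 WT CHIR SOX2 lists (393 SOX2-only, 1262 co-bound), it was −2.12 points (exact permutation p = 0.348). In this stratum SOX2-only regions were called in 92.9%, 92.4% and 88.3% of cases in noCHIR, which was 5.00, 5.60 and 4.62 points above the co-bound regions. In CdxKO they were called in 88.5%, 92.9% and 87.0%, and in T/BraKO in 79.6%, 92.4% and 91.6%, in every mutant library below the co-bound regions, by −1.97 to −13.8 points. The mutants minus noCHIR gave −10.8 points (exact p = 0.0119, adjusted p = 0.0952). With both classes limited to a best WT CHIR rank of 5000 or better, a choice made after seeing the data, the mean difference was −8.61 points and the mutants minus noCHIR −14.6 points. When 1 of the 9 followed libraries was left out, neither result stayed under 0.05 after adjustment, since fewer assignments remain. Without WT CHIR SOX2 replicate 1 in the rule, the mean difference was −10.4 points.

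SOX2-only regions were less often shared by all conditions, and more often called in WT CHIR alone, than SOX2 regions as a whole. At least 2 of 3 noCHIR lists called 1294 of them (68.3%, against 71.8% of all 5582 SOX2 regions), at least 2 of 3 CdxKO lists 1204 (63.6% against 75.9%) and at least 2 of 3 T/BraKO lists 1189 (62.8% against 76.3%). These calls held in all 3 groups at 930 regions (49.1% against 59.5%). No list called 388 in noCHIR (20.5% against 17.6%), 395 in CdxKO (20.9% against 12.6%) and 379 in T/BraKO (20.0% against 11.5%). All 9 followed libraries called 509 regions (26.9%, Wilson 95% interval 24.9 to 28.9%, against 39.7%), and none called 203 (10.7%, 9.40 to 12.2%, against 4.91%). For co-bound regions these shares were 49.2% and 0.979%. A peak in 3 of 3 WT CHIR SOX2 lists was present at 20.7% of SOX2-only and 47.5% of co-bound regions. The counts in this paragraph were not matched for it, and its part in them was not tested. Some of the 203 had weaker SOX2 peaks in the complete followed lists, as at Lingo1 with folds of 5.27, 5.62 and 4.23 in noCHIR.

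Few SOX2-only regions had any of the following strict patterns across the followed conditions. Looser differences between the groups were not counted. At least 2 of 3 noCHIR lists and no mutant list called 19 regions (1.00% against 0.520% of all SOX2 regions), of which 7 were in 3 of 3 noCHIR lists (0.370% against 0.161%). At least 5 of 6 mutant lists and no noCHIR list called 14 (0.739% against 2.45%), whereas 106 co-bound regions (3.99%) had this pattern. Between the mutants, 12 regions were in 3 of 3 T/BraKO and no CdxKO list (0.634% against 1.33%) and 10 showed the opposite (0.528% against 1.00%).

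**Figure D2:**
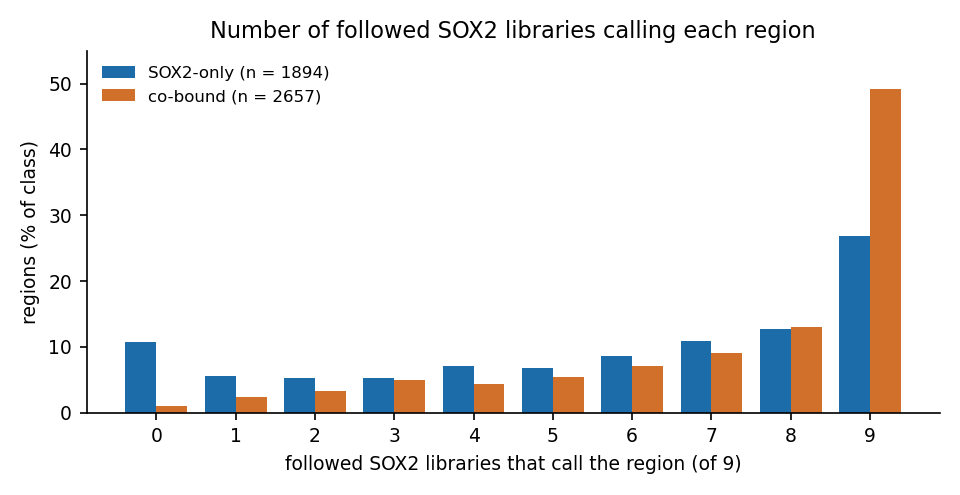
Number of the 9 followed SOX2 libraries that called a region (x axis) and the percentage of each class (y axis). SOX2-only regions had a second group of 203 regions (10.7%) called in no library beside the 509 (26.9%) called in all 9, while 49.2% of co-bound regions were at 9 and 0.979% at 0.

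TCF/LEF motifs were less frequent around the summit than in co-bound regions, and SOX motifs had a similar share in both classes. The 1031 SOX2 regions between the classes had TCF/LEF motifs at 7.86% (7.57% in their moved windows) and SOX motifs at 32.6%. A SOX motif within 100 bp of the summit was found at 30.4% of SOX2-only regions (28.4 to 32.5%) and 29.7% of co-bound regions, and at 7.60% of the SOX2-only windows moved by 1000 bp, which served as background. The difference between classes was 0.679 points (Newcombe 95% interval −2.01 to 3.39, counting error only). The OCT-SOX composite was found at 6.18% of SOX2-only and 5.38% of co-bound regions against 0.634% in the moved windows, and the OCT motif at 10.6% and 11.9% against 1.43%. A TCF/LEF motif was found at 5.02% of SOX2-only regions (4.12 to 6.09%) and 25.7% of co-bound regions (7.79% in their moved windows). The difference was −20.7 points (−22.6 to −18.8). β-catenin and LEF1 peaks chose the classes, so this difference is not independent of the rule. The SOX2-only windows held a TCF/LEF motif less often than the same windows moved by 1000 bp (9.19%, 7.97 to 10.6%), not matched for base composition. CDX motifs were likewise below the moved windows (11.8% against 15.2%) and differed from co-bound regions (15.0%) by −3.19 points (−5.16 to −1.18), and co-bound regions were also below their own moved windows (17.3%). The T-box motif AGGTGTGA was rare in both classes (0.686% and 1.13%), and CNAGNNGGC, part of the CTCF motif, was found at 15.0% and 13.7%. Among the 550 regions without any peak in the complete β-catenin and LEF1 lists, TCF/LEF motifs were at 4.73% and SOX motifs at 28.4%.

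**Figure D3:**
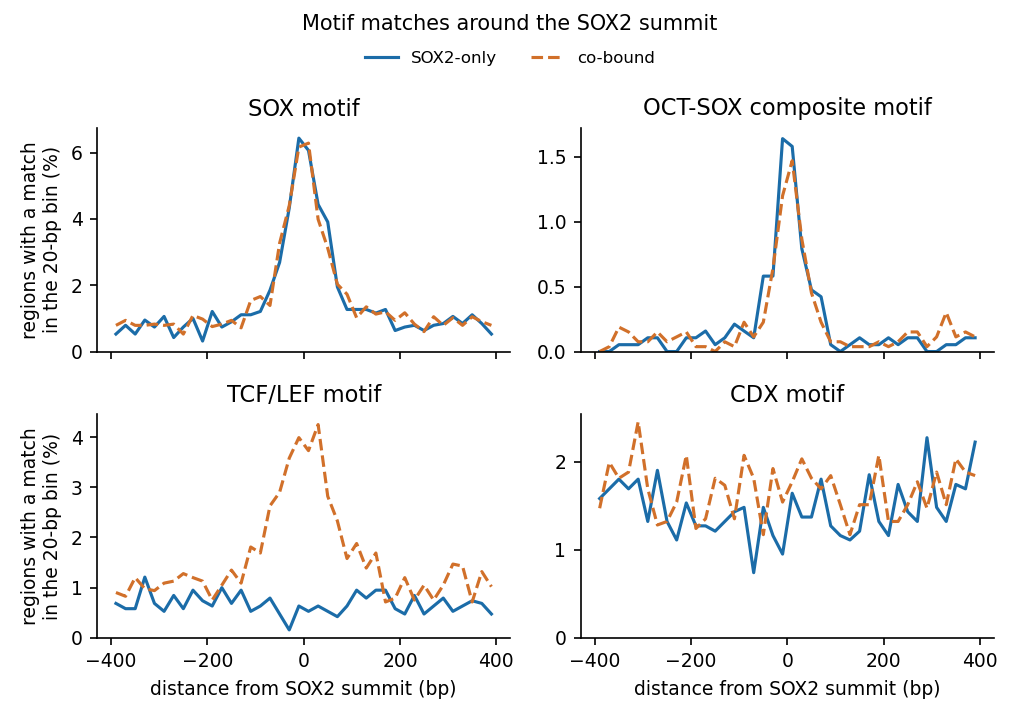
Percentage of SOX2-only (solid) and co-bound (dashed) regions with a match centred in each 20-bp bin (y axis) by distance from the SOX2 summit in bp (x axis). SOX matches peaked at the summit in both classes (6.44% and 6.17% in the bin at −10 bp), whereas TCF/LEF matches peaked only in co-bound regions (3.99% against 0.634% in the same bin).

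Motif shares differed between SOX2-only regions called in all and in none of the followed SOX2 libraries. Regions called in all 9 followed libraries held a SOX motif in 36.1% of cases and those called in none in 14.8%, a difference of 21.4 points (14.5 to 27.4). The OCT motif was at 15.3% and 1.97% (13.4 points, 9.21 to 16.9), and the composite at 9.63% and 1.97% (7.66 points, 3.91 to 10.8). In the regions called in none, the OCT motif was as frequent as in their moved windows (1.97%), while the SOX motif stayed above them (5.42%). The GC box was at 20.6% and 9.85% (10.8 points, 4.90 to 15.8). TCF/LEF motifs were at 3.54% and 7.39% (−3.85 points, −8.48 to −0.372). The co-bound regions called in all 9 libraries had 36.4% SOX and 20.3% TCF/LEF motifs. SOX2-only regions with a peak in 3 of 3 WT CHIR SOX2 lists had 35.6% SOX and 10.4% composite motifs. The regions called in all and in none were not matched for WT CHIR rank, and its part was not tested.

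**Figure D4:**
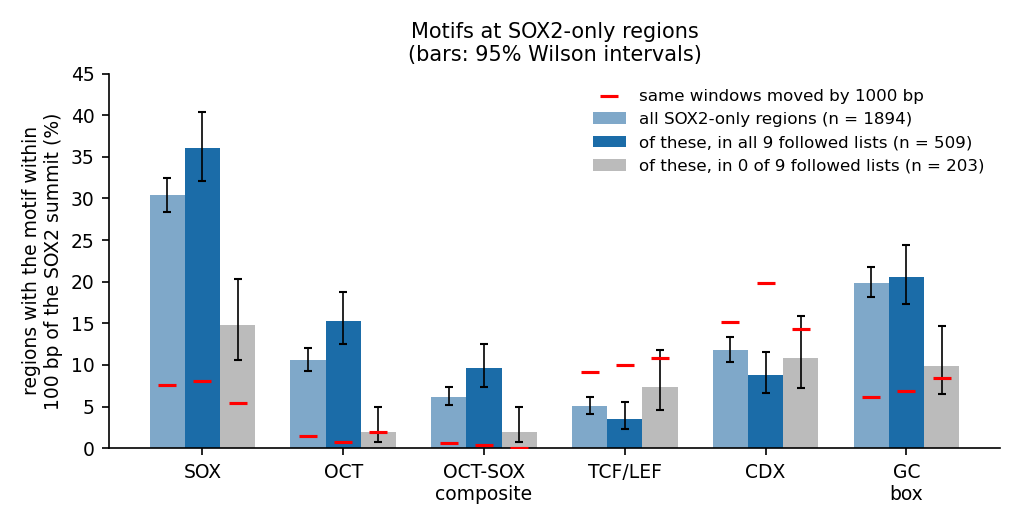
Percentage of SOX2-only regions with each motif within 100 bp of the summit (bars, with 95% Wilson intervals) for all 1894, the 509 called in all 9 followed libraries and the 203 called in none. Red dashes give the same windows moved by 1000 bp, and the SOX, OCT and composite bars were higher at 36.1%, 15.3% and 9.63% in the regions called in all 9.

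SOX2-only regions lay nearer to transcription starts than co-bound regions. The summit lay within 1000 bp of a transcription start at 576 regions (30.4%, 28.4 to 32.5%) against 16.4% of co-bound regions, a difference of 14.0 points (11.5 to 16.5). The median distance to a start was 5642 bp against 10249 bp. The SOX2 regions between the classes had the same trait, with 30.6% at promoters, a median distance of 5805 bp and a GC box at 23.2%. The GC box GGGCGG, a motif of CpG-rich promoters, was at 19.9% against 15.4%, and the same window held 5.61 CpG on average against 3.85. By the GENCODE M21 basic annotation, 43.9% of summits were in introns, 46.2% were intergenic, 6.23% were in UTRs and 1.53% in coding exons. Promoter shares were alike in regions called in all 9 followed libraries (30.5%) and in none (28.1%). With only regions over 1000 bp from a start, an alternative chosen after seeing the data, the TCF/LEF difference was −21.9 points and the mean SOX2 difference −16.1 points.

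In the mutants, few SOX2-only regions had β-catenin or LEF1 among the 20000 best peaks, and more had a weaker peak. In the complete lists a β-catenin peak was found at 18.7% to 40.4% of them and a LEF1 peak at 16.3% to 30.9%. For co-bound regions these shares were 85.1% to 96.7% and 59.1% to 76.3%. The complete lists held 37687 to 924506 peaks, and the shares were not adjusted for this. Among the best peaks, β-catenin was called at 9.13%, 11.5% and 5.28% of SOX2-only regions in CdxKO replicates 1 to 3 and at 14.7%, 14.5% and 10.1% in T/BraKO, against 70.5% to 89.8% of co-bound regions. CdxKO minus T/BraKO was −4.49 points, with overlapping libraries (exact permutation test, p = 0.200, adjusted p = 0.429). This difference was −2.82 points without CdxKO β-catenin replicate 3 and −7.15 points without WT CHIR β-catenin replicate 1 in the rule. LEF1 was called at 1.85%, 2.96% and 1.95% in CdxKO and 1.00%, 1.64% and 2.22% in T/BraKO, a difference of 0.634 points (exact p = 0.400, adjusted p = 0.533). It was 0.228 points without WT CHIR SOX2 replicate 3 in the rule, and 0.282 and 0.326 points without CdxKO LEF1 replicate 2 and T/BraKO LEF1 replicate 1. At least 2 of 3 β-catenin lists called 93 regions in CdxKO (4.91% against 44.7% of all SOX2 regions) and 186 in T/BraKO (9.82% against 52.9%). For LEF1 these were 3 regions in CdxKO (0.158% against 15.5%) and 0 in T/BraKO (Wilson upper limit 0.202%, against 12.0%). No β-catenin call in any of the 6 mutant lists was found at 1229 regions (64.9%), a share that was not counted over all SOX2 regions. WT CHIR lists set the rule, so the values in the mutants were not compared with WT.

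β-catenin was called in at least 2 of 3 lists of both mutants at 52 SOX2-only regions (2.75%, 2.10 to 3.58%). This pattern held at 75.2% of co-bound regions and at 15.7% of the SOX2 regions between the classes. Of the 52 SOX2-only regions, 43 had a weaker peak in at least 1 of the complete WT CHIR β-catenin lists and 10 in all 3. A SOX motif was present at 38.5% and a TCF/LEF motif at 9.62% (4.18 to 20.6%). The gene Notch1, a receptor of the Notch pathway, and Dll4, one of its ligands, each had such a region, 1333 bp and 3129 bp from a start, called in 2 of 3 CdxKO and 3 of 3 T/BraKO β-catenin lists. A region 2179 bp from Tfcp2l1 and one 7839 bp from Mesp2 had the same calls. In the complete WT CHIR β-catenin lists, the Dll4 region had a weaker peak in 2 of 3. The regions at Notch1, Tfcp2l1 and Mesp2 had one in 1 of 3. The Mesp2 region also had a weaker LEF1 peak in 3 of 3 complete WT CHIR lists. These genes were picked after the values were seen. The 3 regions with LEF1 in 2 of 3 CdxKO lists were nearest to Slc39a8, Pdia4 and B3gntl1.

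**Figure D5:**
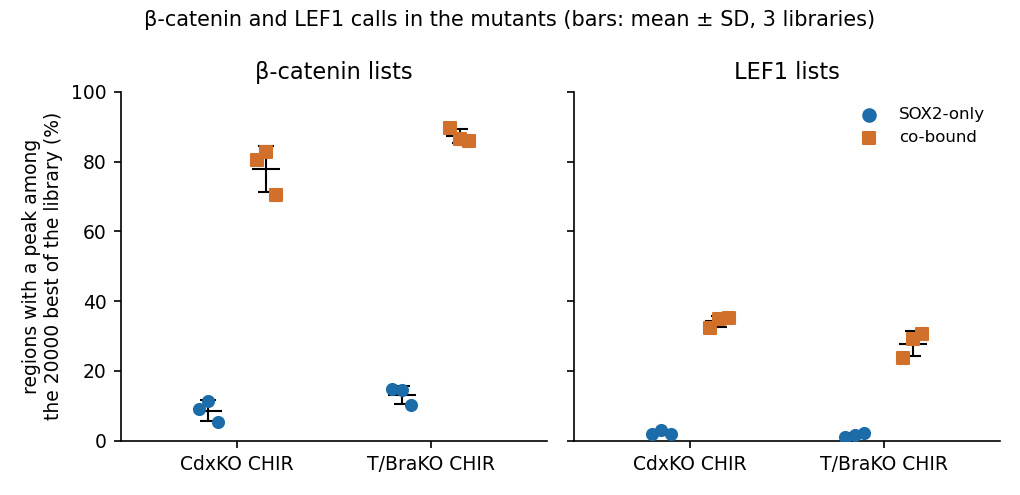
Percentage of SOX2-only (circles) and co-bound regions (squares) with a β-catenin (left) or LEF1 peak (right) among the 20000 best of each mutant library, with the mean and SD of 3 libraries. SOX2-only regions stayed between 5.28% and 14.7% for β-catenin and between 1.00% and 2.96% for LEF1.

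The best-ranked SOX2-only regions had strong SOX2 peaks in every group. The region with the best mean rank in WT CHIR (chr11:44841248-44842360) was in an intron 224568 bp downstream of the start of Ebf1, which encodes a B-cell and neural transcription factor. Its fold enrichment at the summit over the local background was 28.2, 37.7 and 82.5 in WT CHIR replicates 1 to 3 and 19.5, 38.4 and 53.2 in noCHIR. It was 51.7, 62.3 and 76.0 in CdxKO and 42.5, 61.3 and 38.2 in T/BraKO, so that all groups overlapped. The summit holds the composite element printed above. A second region with the same element (chr2:25180531-25181170) lay 55 bp upstream of Nrarp, a feedback regulator of Notch signalling. Its fold was 27.6, 25.3 and 65.6 in WT CHIR, 20.4, 25.4 and 48.1 in noCHIR, 47.2, 53.4 and 75.8 in CdxKO and 24.6, 35.6 and 75.3 in T/BraKO. The other 6 of the 8 best were nearest to Igfbpl1, Abca4, Arg1, Slc18b1, Ydjc and Ppp1r18, with OCT motifs at Igfbpl1, Arg1 and Slc18b1, a composite at Abca4 and SOX motifs at Slc18b1, Ydjc and Ppp1r18. The Ydjc and Ppp1r18 summits were 54 and 15 bp upstream of a start. All 8 were called in 9 of 9 followed SOX2 libraries. Each of the 8 also had a weaker β-catenin or LEF1 peak in at least 1 complete WT CHIR list. The Arg1 region had one in 3 of 3 β-catenin and 2 of 3 LEF1 lists, and the Ppp1r18 region in 2 of 3 and 3 of 3. Ebf1, Abca4, Arg1, Slc18b1 and Ppp1r18 were also among the 6 best over the followed libraries, with Cdyl as the sixth. The Cdyl region had folds of 8.37, 5.56 and 24.2 in WT CHIR and of 53.9, 27.8 and 17.9 in noCHIR. Fold enrichments served for description only and were not tested.

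Regions chosen for their calls in one condition are given as a description. At Cyp11a1, the gene of the side-chain cleavage enzyme of steroid synthesis, the region chr9:58014467-58014727 lay 114 bp upstream of a start. Its fold was 16.9, 15.4 and 10.00 in WT CHIR, 12.6, 10.2 and 10.8 in CdxKO and 7.06, 11.4 and 4.64 in T/BraKO. In noCHIR, replicates 1 and 2 listed no peak and replicate 3 had 5.11. The Creb3l2 region (chr6:37377918-37378233) was the only one of these 6 to hold a TCF/LEF motif, and no noCHIR list had a peak there. The other 4 were nearest to Map1b, Pgpep1l, Lzts1 and Cryaa. In the opposite direction, the Ankfn1 region (chr11:89818939-89819101) had folds of 12.0, 20.0 and 6.23 in noCHIR. It had 7.17 and 8.24 in WT CHIR replicates 2 and 3, 3.92 and 5.19 in CdxKO replicates 1 and 2, 5.87 in T/BraKO replicate 2, and no peak in the other libraries. The regions nearest to Fam107b, Dph6, Fbxw17, Shb and Sec13 shared this pattern, and each of the 7 regions in 3 of 3 noCHIR and no mutant list held a SOX motif. With at least 2 of 3 noCHIR and no mutant list, 7 of 19 regions held it (36.8%, against 30.4% of all SOX2-only regions).

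Among the 203 regions called in no followed library, the best ranked were nearest to Slc6a9, Clec3a, Lingo1, Bdp1, Rasal1 and Sh3rf1. The Clec3a region (chr8:114364009-114364346) had folds of 13.7 and 9.56 in WT CHIR replicates 1 and 2 and no peak in any of the other 10 SOX2 lists. The Slc6a9 region had 16.4, 9.28 and 3.66 in WT CHIR. Elsewhere it had 3.96 in noCHIR replicate 3 and 4.79 in CdxKO replicate 1, with no peak in the other 7 libraries. The windows at Lingo1 and Sh3rf1 held a SOX motif, and those at Slc6a9, Clec3a and Bdp1 held none of the motifs searched.

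Genes with roles in this culture were near SOX2-only regions at low shares. By the nearest protein-coding start, 1692 genes had at least 1 such region, of which 375 were also nearest to a co-bound region (22.2% of the former and 18.6% of the 2014 genes near co-bound regions). Genes of naive pluripotency were nearest to 7 SOX2-only regions (0.370% of them, against 0.414% of co-bound and 0.187% of all merged regions), at 4 of 14 genes. The best ranked was 418276 bp upstream of Nr5a2, an orphan nuclear receptor that sustains Pou5f1 expression (chr1:137378190-137378871), with folds of 36.0, 18.6 and 31.0 in WT CHIR, 29.6, 40.5 and 26.9 in noCHIR, 32.4, 37.4 and 46.6 in CdxKO and 19.3, 28.5 and 25.4 in T/BraKO. A region 365808 bp from Tbx3 held the composite element printed above and was called in 9 of 9 followed libraries, with folds of 8.75 to 39.8. The other 2 genes were Klf5 and Tfcp2l1.

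Genes of core and epiblast pluripotency were nearest to 7 SOX2-only regions (0.370%, against 0.194% of all merged regions) and to 25 co-bound regions (0.941%). The genes near SOX2-only regions included Dnmt3a, Lefty1, Lin28a, Otx2 and Zic2. The Otx2 region (chr14:48754135-48754810), 80433 bp upstream of this anterior regulator, had folds of 15.3, 15.4 and 20.3 in WT CHIR, 25.6, 17.5 and 21.6 in noCHIR, 10.9, 23.3 and 13.8 in CdxKO and 17.7, 20.3 and 23.8 in T/BraKO. The Lefty1 region held 2 SOX motifs. Anterior and general neural genes were nearest to 14 SOX2-only (0.739%) and 26 co-bound regions (0.979%), against 0.475% of all merged regions. Neural genes near SOX2-only regions included En2, Irx3, Ncam1, Neurog2, Olig3, Pax6, Pou3f2 and Six3. At Six3, a forebrain regulator, the region was called in 9 of 9 followed SOX2 libraries. In the complete WT CHIR lists, the Six3 region had a weaker peak in 3 of 3 β-catenin and 2 of 3 LEF1 lists. At Neurog2, a proneural factor, the best-ranked region (chr3:127642460-127642813) had folds of 18.9, 5.84 and 9.56 in WT CHIR and was called in 1 of the 9 followed libraries.

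WNT feedback and TCF/LEF genes were nearest to 2 SOX2-only regions (0.106%, against 0.337% of all merged regions), at 2 of 21 genes, and to 35 co-bound regions (1.32%), at 15 genes. The first was at Sp8 and the second at Dkk1, which encodes a secreted WNT antagonist. The Dkk1 region (chr19:30553569-30554168), 4237 bp upstream of the gene, had folds of 14.1, 10.5 and 6.20 in WT CHIR and of 31.2, 21.5 and 30.5 in noCHIR. They were 16.2, 12.1 and 14.3 in CdxKO and 12.7, 8.42 and 13.2 in T/BraKO, so that every noCHIR value was above all others. Both genes also had a co-bound region. Primitive streak and mesoderm genes had 4 SOX2-only (0.211%, against 0.192% of all merged regions) and 23 co-bound regions (0.866%), the former at Gsc, Lhx1, Mesp2 and T. Caudal epiblast and trunk genes had 7 (0.370%, against 0.260%) and 25 (0.941%), the former at Hoxb2, Hoxc5, Hoxc8, Meis1 and Meis2. No SOX2-only region was nearest to Cdx1, Cdx2 or Cdx4, which all had a co-bound region. A Meis1 region 735 bp upstream of a start (chr11:19018904-19020227) was called in 3 of 3 CdxKO, 3 of 3 T/BraKO and 1 of 3 noCHIR SOX2 lists. A second Meis1 region (chr11:18873081-18874172) was called in 1 noCHIR, 1 CdxKO and 0 T/BraKO lists. The Hoxb2 region was called in 3 noCHIR, 3 CdxKO and 2 T/BraKO lists, and the Meis2 region in 2, 2 and 1. In the complete WT CHIR lists, the Hoxb2 region had a weaker peak in 3 of 3 β-catenin and 1 of 3 LEF1 lists.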

How the data were processed

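SOX2, β-catenin and LEF1 ChIP–seq peak lists of 30 libraries in 10 groups were used. Per the study's methods, the authors aligned single-end reads to mm10 in the nf-core pipeline and called narrow peaks per library with MACS2, with no version and no control input named in the labels or methods. The deposited fold enrichment is a ratio of the summit over local background, significance is deposited as −log10 p and as −log10 q, and the authors' score column was not used. The lists hold no read counts, so depth is unknown, and the precision is given by the 3 libraries of each group.

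Peaks were ordered on −log10 q, with ties broken by −log10 p and then by fold enrichment, and the 20000 best of each list were kept. A region was called when a peak overlapped it by at least 1 bp. Shares of regions called per library were compared by two-sided exact permutation tests, adjusted by Benjamini-Hochberg over 8 tests with a threshold of 0.05. Genome sequence was GRCm38.p6, the build of the lists, and annotation GENCODE M21 (basic). Motifs were counted within 100 bp of the best WT CHIR SOX2 summit. Shares have 95% Wilson and differences 95% Newcombe intervals, which cover counting error only. Alternatives changed the number of peaks (10000, 5000, complete lists), the overlap, the rule, the windows and the libraries. The members and gene lists were chosen with earlier results of these data known. Regions named were the 8 best ranked in 3 of 3 WT CHIR lists, the 6 best in all 9 followed libraries and in none, up to 6 for each of the noCHIR and mutant patterns, and up to 4 per gene list. Same-numbered replicates were not paired (below). Python 3, numpy and scipy were used, and the code was tested on simulated data. Some items are not reported here.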

Additional observations from a re-analysis of the deposited data

Results flagged for a closer look

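One result stood out because it differed between groups. SOX2-only regions minus co-bound regions gave −6.78 ± 1.78 points in noCHIR (n = 3) and −22.4 ± 2.48 points in the CdxKO and T/BraKO libraries (n = 6), and the mutants minus noCHIR −15.6 points (exact permutation test, p = 0.0119, adjusted p = 0.0476). Genotype and CHIR change together in this contrast and cannot be told apart.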

How the results depend on the processing

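The number of SOX2-only regions was 1186 with the 5000 best peaks, 550 without any peak in the complete β-catenin and LEF1 lists, 393 with 3 of 3 SOX2 lists, and 586 to 2401 when 1 rule library was left out (586 without SOX2 replicate 3, 1003 without replicate 1, 1107 without replicate 2). The mutants minus noCHIR turned to 0.968 points with the 10000 best peaks and 8.43 with the 5000 best, CdxKO minus noCHIR to 2.57 and 9.44, and T/BraKO minus noCHIR to 7.42 with the 5000 best. When 1 library was left out, the mutants minus noCHIR ranged from −7.20 to −2.63, CdxKO minus noCHIR from −6.37 to −2.33 and T/BraKO minus noCHIR from −8.03 to −0.862 points. CdxKO minus T/BraKO ranged from −2.94 (without T/BraKO replicate 1) to 4.06 points when 1 library was left out, and was −0.126 away from starts. The mean SOX2-only minus co-bound share was −6.72 points with the 5000 best peaks (exact permutation test, adjusted p = 0.0833), −2.12 with 3 of 3 SOX2 lists, −8.61 at ranks of 5000 or better and −18.8 to −10.4 without 1 library, the last without WT CHIR SOX2 replicate 1. Its difference between mutants and noCHIR was −13.9, −10.8 and −14.6 under the same settings and −16.7 to −12.8 without 1 library. Its adjusted p rose over 0.05 in the first 3 of these settings. Both results lost the call whenever 1 followed library was left out (exact permutation test, adjusted p 0.0625 to 0.143), since fewer assignments remain. They kept it whenever 1 rule library was left out.

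Same-numbered libraries were not paired by the data, as their deviations correlated by −0.00597 to 0.0888. With a replicate block, the difference between mutants and noCHIR in that share was −15.6 points with exact permutation p = 0.0370 and adjusted p = 0.148, and no other call changed. For the 10000 best, 5000 best and left-out settings, the TCF/LEF difference was −22.8, −26.4 and −24.5 to −19.6 points, and −14.3 in 50-bp windows. The composite difference was 2.23, 3.26 and 0.694 to 2.47 points, 3.93 with 3 of 3 lists and 2.37 away from starts. The promoter difference was 17.0, 19.8 and 13.9 to 16.6 points, 19.5 with 3 of 3 lists and 11.4 without weak β-catenin or LEF1 peaks. The CDX difference was −5.23 with the 5000 best peaks and −5.29 to −2.28 without 1 library. The SOX motif difference took both signs, from −1.37 to 3.39 points. Other alternatives to these results kept their direction and side of the threshold. The 2 alternatives on rank and distance to starts were chosen after seeing the data. Peak lists without read counts cannot separate a weak site from a missing one.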

Other observations

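Of the 1692 genes nearest to a SOX2-only region, 1514 had 1 such region and 24 had 3. These were noticed after their values were seen. Nr5a2, Neurog2, Smad6, an inhibitor of BMP signalling, and Myb had 3 SOX2-only regions each and no co-bound region. Tfap2a, a transcription factor of ectoderm and neural crest, had 3 and no co-bound region, and Nr2f2, an orphan nuclear receptor, had 3 beside 1 co-bound region. The calls differed within a gene. At Smad6, the intronic region chr9:63958948-63959397 was called in 3 of 3 libraries of noCHIR, CdxKO and T/BraKO, whereas chr9:63973714-63974116 was called in 0 of 3 noCHIR and 1 of 3 libraries of each mutant.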
